A study of Sus scrofa with 6 samples.

Results

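The genes described here are those of the MOS and MAPK pathway that holds the mammalian egg in metaphase II. They are the kinase MOS, the MAP kinase kinases MAP2K1 and MAP2K2, the MAP kinase MAPK3, the RSK kinases RPS6KA1, RPS6KA2 and RPS6KA3, and the MAP kinase phosphatases DUSP1 and DUSP6. Their rows were taken by gene name, and all 9 of the 9 names were found among the 17678 genes of the table. Of these, 7 reached the minimum for testing, an average of 10 across the libraries, as did 11986 genes in all. RPS6KA2 and DUSP6 were below that minimum.

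The study depleted SIN3A, the scaffold protein of a histone deacetylase complex, in pig embryos and sequenced their polyadenylated RNA. Oocytes of crossbred peripubertal pigs (Landrace, Yorkshire and Duroc) were matured in vitro, stripped of cumulus cells and injected at metaphase II. The NC group received a non-specific control siRNA and the KD group received siRNAs against different sites of SIN3A. Both groups were then activated by electric pulses, kept in cycloheximide and cytochalasin B, and collected as 2-cell parthenogenetic embryos 32 h after activation, in 3 libraries per group with 20 pooled embryos in each. The embryos therefore had no sperm and no paternal genome in either group. The study calls the replicates independent, and neither it nor the sample labels say whether they came from separate batches of oocytes. The p-values measure the spread between these libraries.

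In the vertebrate egg, MOS phosphorylates and activates the MAP2K proteins (MEK), which activate ERK kinases such as MAPK3, which in turn activate the RSK kinases. The part of this cascade from MOS to ERK is the core of cytostatic factor. That activity keeps the egg at metaphase II until fertilization or artificial activation. MOS is made from a maternal mRNA that is stored in the oocyte, and translation of that mRNA is switched on during maturation through its poly(A) tail. Dual-specificity phosphatases of the DUSP family remove phosphate from MAP kinases, and DUSP1 and DUSP6 are also known as genes that are switched on by MAP kinase signalling itself. The question here was which of these mRNAs were present in the 2-cell parthenote, and whether their abundance differed between NC and KD embryos. All libraries were of 2-cell embryos, so what was kept or lost since the egg was not measured. Protein and phosphorylation were not measured in these libraries.

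The values are signals, that is, read estimates per gene that the authors scaled between libraries. They summed to 11367665, 11404476 and 11084950 in NC and to 11500709, 11350561 and 11191788 in KD. The depth estimated from the spacing of the low values was 10900000, 7800000 and 12900000 reads in NC and 11800000, 15800000 and 10200000 reads in KD. NC replicate 2 was thus the shallowest library and KD replicate 2 the deepest.

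The knocked-down gene was examined in every library before the pathway. SIN3A (ENSSSCG00000001880) was 37361, 33964 and 32404 in NC and 3271, 1079 and 4173 in KD. Every KD library was far below every NC library. The KD mean was 8.22% of the NC mean, with a log2 fold change of -3.81 (SE 0.31, adjusted p = 8.45e-06). What remained may lie in all embryos of a pool or in some of the 20, and these cannot be told apart. Across all tested genes, 19 (0.159%) passed an adjusted p of 0.05, 7 higher and 12 lower in KD. Without the variance trend in the limma fit, 0 genes passed, and SIN3A had an adjusted p of 0.423 at the same log2 fold change. With a library left out, 11 to 19 genes passed. The median log2 fold change over all tested genes was 0.003.

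Markers of the oocyte were present in both groups, from DDX4 with a mean of 58 in NC and 45.1 in KD up to KPNA7. Of 12 oocyte and maternal embryo markers, 10 were in the table and all 10 were tested. Their summed signal was 80228, 76800 and 72018 in NC and 86402, 82803 and 70641 in KD. KPNA7, an importin of the oocyte and early embryo, had the highest signal of them, not corrected for length, at 39717, 40155 and 36124 in NC and 46896, 42290 and 33707 in KD. The log2 fold change of KPNA7 was 0.07, and it was -0.01 after quantile normalization. No marker of this list was called, and none had an unadjusted p under 0.05 in limma.

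Markers of cumulus and granulosa cells, which surround the oocyte, were counted as well. Of 14 listed, 12 were in the table and 4 were tested. Their summed signal was 1248, 1074 and 1025 in NC and 1157, 1008 and 1093 in KD, so the groups overlapped. Most of it was VCAN, a matrix proteoglycan, at 925, 762 and 761 in NC and 855, 735 and 755 in KD, and GREM1, a secreted BMP antagonist, at 282, 271 and 219 in NC and 262, 240 and 267 in KD. The other 10 markers together summed to 41, 41.3 and 44.8 in NC and to 39.6, 32.2 and 71.1 in KD. No marker was at 0 in all libraries, and 4 had a mean under 1. PTX3 and PTGS2, genes of the expanding cumulus, and GREM1 were named after their values were seen. PTX3 was 2.21, 1.55 and 0.762 in NC and PTGS2 was 3.13, 2.92 and 1.72 in NC, and both were listed at 0 in every KD library. These values stand for 0 to 3 estimated reads. Of these 10 minor markers, 6 had a lower and 4 a higher mean in KD, and PTX3 and PTGS2 were those without overlap. INHBA, an inhibin subunit, was 17.7, 13.1 and 13.7 in NC and 6.81, 13.6 and 7.69 in KD, with a log2 fold change of -0.66 (SE 0.50, adjusted p = 0.997) on 7 to 19 estimated reads. With a pseudocount of 10 the log2 fold change of INHBA was -0.37. Among those with higher means in KD were CYP19A1 at 1.83 in NC and 7.74 in KD, FOXL2 at 1.68 and 5.97 and STAR at 13.3 and 17.6. INHBA, CYP19A1, FOXL2 and STAR were also named after their values were seen. STAR had a log2 fold change of 0.43, of 0.25 with a pseudocount of 10, and of -0.08 without NC replicate 1.

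No mRNA of the MOS and MAPK pathway passed the test between NC and KD embryos. Of the 7 tested genes, 0 passed the adjusted p of 0.05 in limma, against 0.159% of all tested genes. At an unadjusted p under 0.05 there was 1, DUSP1, against 4.61% of all tested genes. The log2 fold changes were positive in 3 and negative in 4, with a median of -0.021 and a range of -0.55 to 0.07. The sign of that median was not stable, since it was 0.039 over members with a mean of at least 100 and ran from -0.078 to 0.030 with a library left out. The changes of single members were smaller than 0.2 in size in 5 of the 7. The NC and KD values did not overlap in 1 gene, which was lower in KD, against 4.94% of all tested genes. No member was higher in every KD library than in every NC library, against 4.85% of all tested genes. An exact permutation test with 3 libraries per group cannot give a p below 0.1.

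**Figure D1:**
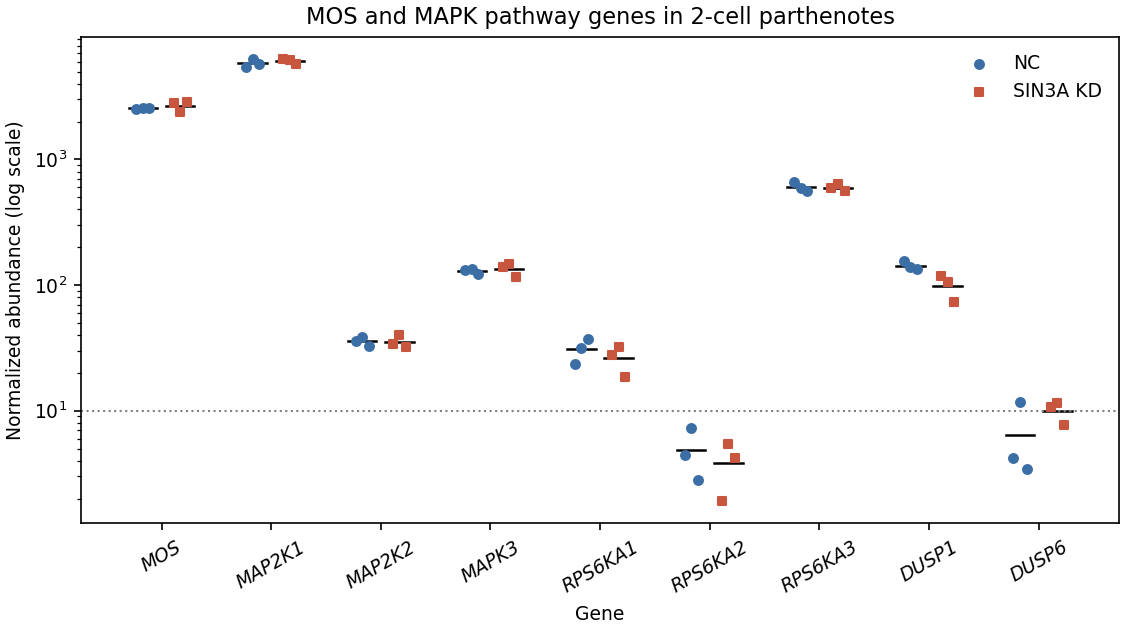
Signal (log scale) of the 9 MOS and MAPK pathway genes in the 3 NC libraries (blue circles) and the 3 SIN3A KD libraries (red squares), with the group mean as a black bar and the minimum mean of 10 for testing as a dotted line. In signal, not corrected for length, MOS and MAP2K1 lie far above the other genes, and DUSP1 is the gene in which all KD points lie under all NC points.

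MOS (ENSSSCG00000006248), the kinase at the top of the cascade, was 2505, 2575 and 2584 in NC and 2834, 2379 and 2836 in KD. KD replicate 2 was the lowest of the libraries and the other KD libraries were the highest, so the NC values lay inside the range of the KD values. NC embryos averaged 2555 ± 43.3 and KD embryos 2683 ± 264 (SD, n = 3 each). The KD mean was 105% of NC, and the log2 fold change was 0.07 (SE 0.09, 95% confidence interval -0.13 to 0.26, adjusted p = 0.997). That interval spans 91.4% to 120% of the NC level. The exact permutation p was 0.4. The coefficient of variation of MOS was 1.69% among the NC libraries and 9.82% among the KD libraries. The MOS values rested on an estimated 1766 to 3322 reads per library.

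The SD of the log2 signal of MOS over the 6 libraries was 0.10, against a median of 0.21 over all tested genes, and 13.5% of genes had a smaller SD. That comparison was not matched on level, and most tested genes have a lower signal than MOS. MAP2K1 and RPS6KA3 varied less than MOS, with SDs of 0.086 and 0.098. The named genes whose log2 signal followed that of MOS most closely were DMAC2 with a Pearson r of 0.981, KLK6 with 0.967 and UBOX5 with 0.967. Their Spearman rho with MOS was 1 for DMAC2, 0.943 for KLK6 and 0.771 for UBOX5. These are descriptions over 6 libraries taken from 11985 genes, of which 50 (0.417%) had r above 0.9. DMAC2 was 73, 73.2 and 82.7 in NC and 115, 61.2 and 125 in KD, so it shared with MOS the low value of KD replicate 2.

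MAP2K1 (ENSSSCG00000004943), the MEK1 kinase that MOS phosphorylates, was 5450, 6284 and 5707 in NC and 6308, 6155 and 5767 in KD. The groups overlapped, with NC replicate 1 the lowest library and KD replicate 1 the highest. NC embryos averaged 5814 ± 427 and KD embryos 6077 ± 279 (SD, n = 3 each). The log2 fold change was 0.07 (SE 0.09, 95% confidence interval -0.11 to 0.25, adjusted p = 0.997), which spans 92.3% to 119% of NC. MAP2K2 (ENSSSCG00000027127), the MEK2 kinase, was 35.9, 38.9 and 32.7 in NC and 33.8, 39.8 and 31.9 in KD. Replicate 2 was the highest in both groups, and the groups overlapped. The log2 fold change of MAP2K2 was -0.03 (SE 0.29, 95% confidence interval -0.64 to 0.59, adjusted p = 0.997), and its sign turned when NC replicate 2 (0.03) or KD replicate 3 (0.04) was left out. With only 27 to 56 estimated reads per library, the interval for MAP2K2 reached from 64% to 150% of NC.

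The mRNA signal of the MEK kinases was almost wholly MAP2K1. Per kilobase of mRNA, MAP2K1 made up 99.4% to 99.5% of the summed MAP2K1 and MAP2K2 signal in every library, and MAP2K2 0.455% to 0.558%. The share of MAP2K2 was 0.523% ± 0.0364 in NC and 0.491% ± 0.0499 in KD (SD, n = 3 each). How many reads the program divided between such related transcripts was not analysed here.

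MAPK3 (ENSSSCG00000040682), the ERK1 kinase, was 132, 135 and 122 in NC and 140, 146 and 116 in KD. Replicate 3 was the lowest and replicate 2 the highest in each group, and the groups overlapped. NC embryos averaged 130 ± 6.81 and KD embryos 134 ± 15.7 (SD, n = 3 each). The log2 fold change was 0.04 (SE 0.18, 95% confidence interval -0.33 to 0.41, adjusted p = 0.997), and it was -0.02 without KD replicate 2.

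Among the RSK kinases, which act below ERK, RPS6KA3 was the main mRNA. RPS6KA3 (ENSSSCG00000012163, RSK2) was 662, 591 and 556 in NC and 588, 632 and 561 in KD. The groups overlapped, and NC replicates 1 and 3 were the highest and the lowest libraries. NC embryos averaged 603 ± 54.3 and KD embryos 593 ± 35.6 (SD, n = 3 each). For RPS6KA3 the log2 fold change was -0.02 (SE 0.11, 95% confidence interval -0.26 to 0.22, adjusted p = 0.997). The sign of RPS6KA3 turned to 0.05 without NC replicate 1 and to 0.02 without KD replicate 3.

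RPS6KA1 (ENSSSCG00000003558, RSK1) was 23.7, 31.6 and 36.9 in NC and 27.9, 32 and 18.7 in KD. KD replicate 3 was the lowest and NC replicate 3 the highest, with the others mixed between them. The log2 fold change of RPS6KA1 was -0.23 (SE 0.35, 95% confidence interval -0.97 to 0.50, adjusted p = 0.997), on 17 to 45 estimated reads per library, and it ran from -0.40 without NC replicate 1 to -0.02 without KD replicate 3. RPS6KA2 (ENSSSCG00000004022, RSK3) was 4.44, 7.33 and 2.79 in NC and 1.92, 5.48 and 4.18 in KD. These values stand for an estimated 2 to 8 reads. RPS6KA2 was below the minimum for testing in limma, and the exact permutation p was 0.6.

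Per kilobase, RPS6KA3 held 81% to 85.4% of the RSK family signal in the 6 libraries. RPS6KA1 held 6.29% to 12.3%, RPS6KA6 (RSK4) 4.89% to 10% and RPS6KA2 0.487% to 1.78%. With the coding length, chosen after seeing the data, RPS6KA1 held 2.54% to 5.1%, RPS6KA6 4.21% to 8.55% and RPS6KA2 0.282% to 1.04%. The order of RPS6KA1 and RPS6KA6 thus depends on the length used. The RPS6KA3 share was 82.9% ± 2.22 in NC and 83.7% ± 1.44 in KD (SD, n = 3 each), a difference smaller than the spread between replicates.

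DUSP1 (ENSSSCG00000016991), a nuclear phosphatase that switches off MAP kinases, was 154, 140 and 135 in NC and 117, 106 and 72.8 in KD. All KD libraries were lower than all NC libraries, and KD replicate 3 was the lowest. NC embryos averaged 143 ± 9.64 and KD embryos 98.7 ± 23 (SD, n = 3 each), which is 69.1% of NC. The log2 fold change was -0.55 (SE 0.20, 95% confidence interval -0.98 to -0.13), and the interval spans 50.5% to 91.7% of NC. DUSP1 ranked 187 by limma p among the tested genes, with an unadjusted p of 0.0145 and an adjusted p of 0.922, and did not pass the test. The exact permutation p was 0.1, the smallest that this design allows. Without KD replicate 3 the log2 fold change of DUSP1 was -0.35, and 0 members then had an unadjusted p under 0.05. The values rested on an estimated 66 to 157 reads. The cumulus markers PTX3 and PTGS2 were also lower in every KD library, on 0 to 3 estimated reads, and the mean of INHBA was lower in KD with overlapping groups, whereas the 10 markers other than VCAN and GREM1 summed highest, at 71.1, in KD replicate 3, where DUSP1 was lowest. Their part in the DUSP1 difference was not tested.

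DUSP6 (ENSSSCG00000037910), a cytoplasmic phosphatase specific for ERK, was 4.17, 11.7 and 3.43 in NC and 10.7, 11.5 and 7.69 in KD. NC replicate 2 was the highest library and the other NC libraries were the lowest, so the groups overlapped. The values stand for an estimated 4 to 16 reads per library. DUSP6 was below the minimum for testing in limma, and the exact permutation p was 0.4.

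**Figure D2:**
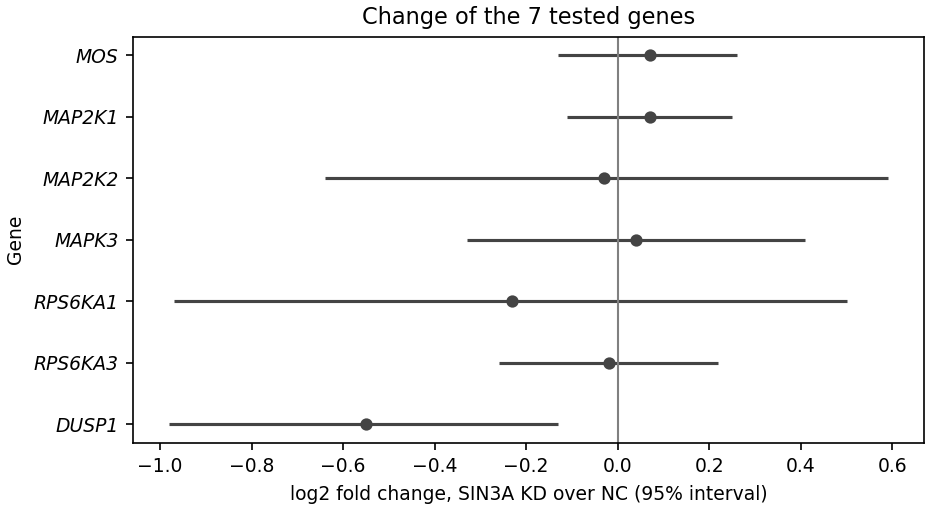
Log2 fold change of SIN3A KD over NC (x axis) for the 7 tested genes of the pathway (y axis), as points with 95% confidence intervals from limma. The intervals of 6 genes include 0, and that of DUSP1 runs from -0.98 to -0.13.

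Levels of the 9 members were set against each other per kilobase of the longest RefSeq mRNA. MAP2K1 was the most abundant, with a mean signal per kilobase of 2466 over the 6 libraries and a range of 2260 to 2616. MOS followed at 1564 (range 1420 to 1693), and 97.2% of the 10323 tested genes with a RefSeq length lay below it, compared with 98.7% below MAP2K1. The ranges of MAP2K1 and MOS did not overlap. MOS was 21.8 times the next gene, MAPK3, on this scale.

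MAPK3 was at 71.6 per kilobase (range 63 to 78.9), RPS6KA3 at 65.2 (range 60.5 to 72.1) and DUSP1 at 56.9 (range 34.3 to 72.3). The ranges of MAPK3 and RPS6KA3 overlapped, as did those of RPS6KA3 and DUSP1, so their order is not set beyond the spread. These mRNAs lay near the middle of the tested genes with a length, with 53.1%, 51.2% and 48.6% of them below. Genes under the minimum for testing are not in this comparison. MAP2K2 was at 12.5 per kilobase, RPS6KA1 at 7.07, DUSP6 at 2.91 and RPS6KA2 at 0.827, and of these only the ranges of DUSP6 and RPS6KA2 overlapped. When the coding length was used in place of the whole mRNA, which was chosen after seeing the data, RPS6KA3 moved to place 3 at 280 per kilobase and MAPK3 to place 4 at 115. MOS was then at 2523 per kilobase, 9.01 times the next gene. The other members kept their places.

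The gene models were read from the RefSeq annotation of Sscrofa11.1. MOS lies at chr4:75739402-75741076 on the plus strand and has 1 exon, an mRNA of 1675 bases, 1038 coding bases and a 3′ UTR of 464 bases. MAP2K1 lies at chr1:164381892-164469313 (plus, 10 exons in the longest mRNA) and MAP2K2 at chr2:74626739-74651352 (plus, 11 exons). MAPK3 lies at chr3:18291444-18299410 (minus, 9 exons). The RSK genes are long and lie apart, RPS6KA1 at chr6:83905124-83947189 (plus, 21 exons), RPS6KA2 at chr1:2203825-2522604 (plus, 24 exons) and RPS6KA3 at chrX:16452401-16576854 (minus, 21 exons). The phosphatase genes are short, DUSP1 at chr16:51457924-51461095 (plus, 4 exons) and DUSP6 at chr5:93303058-93307510 (plus, 3 exons).

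The 3′ ends were searched because the libraries were made from RNA bound to oligo(dT), and stored maternal mRNAs change their poly(A) tails. A change in tail length and a change in the amount of RNA cannot be told apart in such libraries. The letters TTTTAT and TTTTAAT of the cytoplasmic polyadenylation element, and AATAAA and ATTAAA of the polyadenylation signal, were searched on the sense strand in the last 200 bases of the longest mRNA. Of the 9 members, 3 held TTTTAT or TTTTAAT, against 30.1% of 10323 tested genes. AATAAA was present in 7 members, against 64% of genes. The 9 members include RPS6KA2 and DUSP6, which were below the minimum for testing, whereas the background holds tested genes only. RPS6KA2 is among the 3, and RPS6KA2 and DUSP6 are among the 7. MOS and MAPK3 held none of the 4 motifs in this window, which says only that these letters are not in the annotated end.

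Polyadenylation element and AATAAA sites of DUSP1, the member with separated groups, and of MAP2K1, the member with the highest level per kilobase, are shown with 10 bases on each side and the motif in capitals. The DUSP1 sites lie at chr16:51461047-51461072 and chr16:51461060-51461085 on the plus strand, with the motifs starting 39 and 26 bases from the 3′ end. Those of MAP2K1 lie at chr1:164469241-164469267 and chr1:164469280-164469305 on the plus strand, with the motifs starting 63 and 24 bases from the 3′ end. MAP2K1 also held ATTAAA, at chr1:164469138-164469163 and 166 bases from the 3′ end, which is not shown. In both genes a TTTTAT or TTTTAAT stands upstream of AATAAA, and in DUSP1 the pair of sites overlaps in the stretches shown.
DUSP1 TTTTAT: aaggatgactTTTTATaccgcagaat
DUSP1 AATAAA: tataccgcagAATAAAttatggcatt
MAP2K1 TTTTAAT: ccttttaccaTTTTAATccagatattt
MAP2K1 AATAAA: ctcttattctAATAAAtacactatca

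The wider pathway was described with 6 lists of 108 genes, of which 103 were in the table and 87 were tested. None of the 87 was called in limma, and 4 (4.6%) had an unadjusted p under 0.05, of which 3 were higher and 1 was lower in KD, against 4.61% of all tested genes. The groups did not overlap in 4 genes that were lower and 4 that were higher in KD, which is 4.6% each, against 4.94% and 4.85% of all tested genes. The median log2 fold change over the 87 genes was 0.023, against 0.003 over all tested genes.

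Of the genes that link RAS to ERK, 19 of 21 were tested, with a median log2 fold change of 0.019 and 0 genes at an unadjusted p under 0.05. LAMTOR3, a scaffold that binds MEK and ERK, was 146, 147 and 166 in NC and 219, 184 and 176 in KD. Its groups did not overlap, and the log2 fold change of 0.33 had an adjusted p of 0.997. HRAS averaged 31 in NC and 40 in KD with overlapping groups.

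Of 21 ERK phosphatases and feedback inhibitors, 18 were tested. The median log2 fold change was -0.033, and 0 had an unadjusted p under 0.05. PPP2R1B, a scaffold subunit of protein phosphatase 2A, had the highest signal of the list, not corrected for length, at 25789 in NC and 26402 in KD on average. PPP2R1A, the other scaffold subunit, averaged 3324 in NC and 3719 in KD. SPRED1, an inhibitor of RAS signalling, was 1446, 1548 and 1481 in NC and 1327, 1282 and 1324 in KD. All KD values of SPRED1 were under all NC values, at 87.9% of NC on average, with an adjusted p of 0.997.

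Of 13 RSK relatives, activators and substrates, 10 were tested, with a median log2 fold change of 0.034. Of these, 0 were called and 1, GSK3B, had an unadjusted p under 0.05. MKNK2, an ERK-activated kinase that phosphorylates the translation factor EIF4E, had the highest signal of the list, not corrected for length, and averaged 4185 in NC and 4374 in KD. GSK3B, a kinase inhibited by RSK, was 366, 297 and 300 in NC and 388, 403 and 427 in KD. The groups did not overlap, and the log2 fold change of GSK3B was 0.34 (SE 0.13, adjusted p = 0.971). TSC2, a restraint on mTOR that RSK phosphorylates, averaged 501 in NC and 565 in KD, also without overlap and with an adjusted p of 0.997.

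Of 17 genes of metaphase II arrest and its release, 15 were tested, and the median log2 fold change was 0.086. Of these, 2 had an unadjusted p under 0.05, both higher in KD, against 4.61% of all tested genes in either direction, and 0 were called. ITPR1, the calcium release channel of egg activation at fertilization, was 1523, 1477 and 1359 in NC and 1539, 1809 and 1700 in KD. Its groups did not overlap, although NC replicate 1 and KD replicate 1 were close together, and the log2 fold change of 0.21 had an adjusted p of 0.997. PKMYT1, an inhibitory kinase of CDK1, was 273, 283 and 347 in NC and 368, 413 and 331 in KD. NC replicate 3 was above KD replicate 3, and the log2 fold change of 0.30 had an adjusted p of 0.997.

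The gene of the arrest list with the highest signal, not corrected for length, was CDK2AP2, which averaged 5268 in NC and 5618 in KD with overlapping groups. FBXO43 (EMI2), which inhibits the anaphase-promoting complex in the arrested egg, was named after its values were seen. It was 1607, 1600 and 1457 in NC and 1446, 1286 and 1375 in KD. The groups did not overlap, by a small margin between NC replicate 3 and KD replicate 1, and the log2 fold change of -0.18 had an adjusted p of 0.997.

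Of 16 genes of the parallel MAPK branches, 11 were tested, with a median log2 fold change of -0.003. Of these, 0 were called and 1, MAPK6, had an unadjusted p under 0.05. MAPK6, the atypical kinase ERK3, was 3177, 3317 and 3077 in NC and 2243, 1842 and 2590 in KD. All KD libraries were below all NC libraries, with KD replicate 2 the lowest. NC embryos averaged 3190 ± 121 and KD embryos 2225 ± 374 (SD, n = 3 each). Its log2 fold change was -0.53 (SE 0.11, 95% confidence interval -0.76 to -0.30, adjusted p = 0.0826). MAPK6 ranked 22 by p and had the smallest adjusted p of the 87 list genes. The alternatives under which it passed the test included no filter on low values (adjusted p = 0.0426) and leaving out KD replicate 3 (adjusted p = 0.0105), and its adjusted p ranged from 0.0105 to 0.829 over the alternatives. MAPK7 (ERK5), which had the highest signal of these genes without correction for length, averaged 5043 in NC and 5541 in KD, and MAP2K7, a kinase of the JNK branch, averaged 2663 in NC and 2930 in KD. The groups overlapped in both.

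Of 20 ERK-responsive transcription genes, 14 were tested, with a median log2 fold change of 0.033 and 0 at an unadjusted p under 0.05. ELK3, an ETS factor, had the highest signal of the list, not corrected for length, and averaged 4703 in NC and 4675 in KD. ELK1, a nuclear target of ERK, averaged 2030 in NC and 2372 in KD with overlapping groups. IER5, an immediate early gene, was 3.13, 13.2 and 19.6 in NC and 11.7, 24.5 and 32.9 in KD. Its values were spread widely in both groups on 3 to 34 estimated reads, and the log2 fold change of 1.06 (SE 0.59) had an adjusted p of 0.997. For IER5 it was 0.38 without NC replicate 1, 1.54 without NC replicate 3 and 0.61 with a pseudocount of 10.

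**Figure D3:**
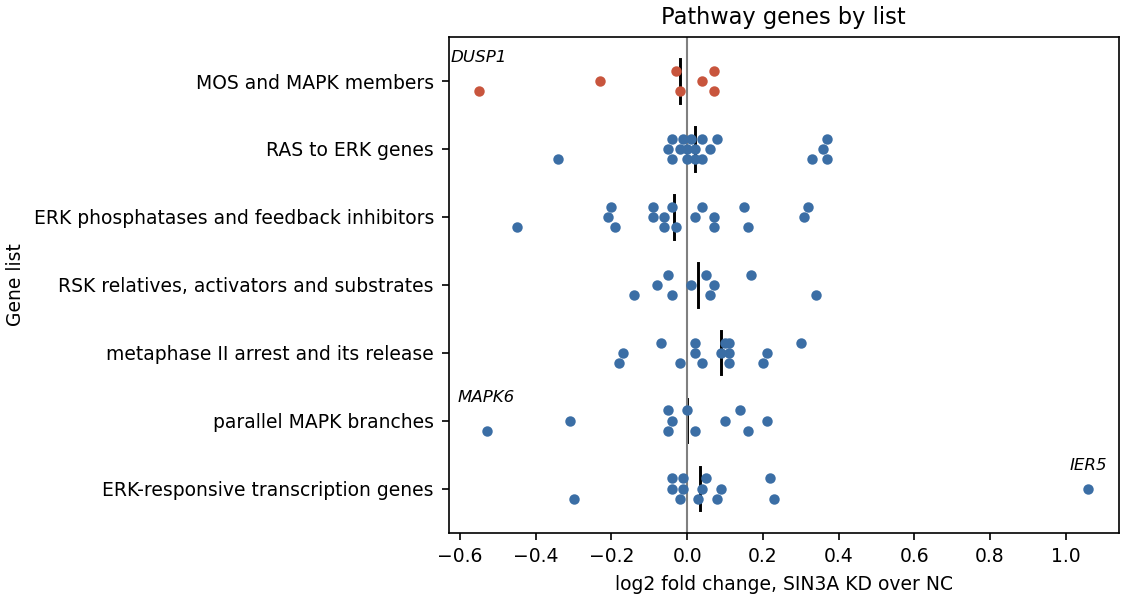
Log2 fold change of SIN3A KD over NC (x axis) for each tested gene, by gene list (y axis), with the median of each list as a black bar, the MOS and MAPK members in red and the other lists in blue. The list medians lie between -0.033 and 0.086, and DUSP1, MAPK6 and IER5 are named.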

How the data were processed

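Sequencing reads were assigned by the authors to Sscrofa11.1 transcripts with Salmon 0.14.1, and the authors deposited normalized signal values per gene, scaled between libraries, with DESeq2 among the tools named. Low values were whole multiples of a per-library step (tolerance 0.1) in 60% to 73.6% of cases, so no count test was run. Genes with a mean of at least 10 were fitted with limma 3.58.1 in R 4.3.3 (eBayes with variance trend) on log2(signal + 1), two-sided, with Benjamini-Hochberg adjustment over all 11986 genes. Fold changes are on that scale, which understates those of low genes. Exact two-sided permutation tests used scipy 1.17.1. The fit was tested on simulated data.

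Members and lists were chosen with earlier results of these data known. From each list, the gene with the highest signal and the 2 with the smallest p were named, with the 3 genes most like MOS by Pearson r, except an item that is not reported here. By identifier, 5 list genes without a name were matched in the reference. Spike-in mRNAs were not used here, so total mRNA per embryo was not assessed. Alternatives covered pseudocount, filter, scaling, variance model, replicate block and left-out libraries.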

Additional observations from a re-analysis of the deposited data

How the results depend on the processing

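Of the 7 tested members, 0 were called under every alternative tried. Of 96 comparisons of their log2 fold changes with an alternative, 90 kept direction and call and 6 changed sign, all with a library left out. Among the other named genes, 354 of 372 did not change direction or call, 1 lost its call, 3 gained it and 14 changed sign. Genes called, 19 at first, numbered 0 without the variance trend, where 622 had an unadjusted p under 0.05 and SIN3A had an adjusted p of 0.423 at the same log2 fold change of -3.81, and 11 to 19 with a library left out. The cause was not tested.

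With a library left out, log2 fold changes ran from 0.02 to 0.15 for MOS, 0.02 to 0.12 for MAP2K1, -0.40 to -0.02 for RPS6KA1, -0.69 to -0.35 for DUSP1, 0.38 to 1.54 for IER5, -0.12 to 0.04 for MAP2K2, -0.02 to 0.14 for MAPK3, -0.08 to 0.05 for RPS6KA3, -0.04 to 0.12 for PPP2R1B, -0.03 to 0.15 for MKNK2, -0.05 to 0.19 for CDK2AP2, -0.03 to 0.36 for MAPK7, -0.08 to 0.04 for ELK3, -0.13 to 0.03 for VCAN, -0.11 to 0.07 for GREM1, -0.08 to 0.84 for STAR and -0.03 to 0.21 for KPNA7. Quantile normalization gave -0.01 for KPNA7. The cause was not tested.

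The median log2 fold change of the members, -0.021, was 0.039 with a mean of at least 100, 0.020 without NC replicate 1, 0.030 without NC replicate 2 and 0.024 without KD replicate 3, and as low as -0.078 without NC replicate 3. Under a replicate block, 26 genes and 0 members were called, the median of the members was -0.021, DUSP1 had an adjusted p of 0.615, and MAPK6 passed the test at 0.015. Deviations of same-numbered libraries correlated at 0.109, 0.111 and 0.0872, each higher than with another number, which is a hint from the data and not from the design. With the coding length, chosen after seeing the data, RPS6KA3 took place 3 and MAPK3 place 4 in the order of levels and the RPS6KA3 share of the RSK signal was 88.3% to 91.8%. At 2 to 56 estimated reads, MAP2K2, RPS6KA1, RPS6KA2 and DUSP6 allow no fine comparison.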
